A study of Mus musculus with 79 samples.

Results

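This account compares the hippocampus of APP/PS1 mice that received an antisense oligonucleotide (ASO) against Cd33 with that of APP/PS1 mice that received a non-targeting control ASO. The members were taken from the labels, by genotype, oligonucleotide and tissue, which gave 20 of the 79 arrays of the series, 9 with CD33 ASO and 11 with control ASO. APP/PS1 mice carry mutant human APP and presenilin 1 transgenes driven by the neuronal Thy1 promoter and form amyloid plaques from an early age, so plaque formation is driven from neurons of a transgenic animal. All mice in both groups were labelled as female and as carrying both transgenes. Both oligonucleotides were infused into the right lateral ventricle through a cannula and osmotic pump at a daily 75 µg in 6 µL over 14 days, beginning at 18 weeks of age, and the left hippocampus was taken whole at about 20.5 weeks. APP/PS1 mice infused with phosphate-buffered saline (PBS, 8 arrays) and wild-type littermates infused with PBS (11 arrays) were in the same model and are used for side values. Each array held total RNA from 1 animal.

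Human CD33 is a receptor of microglia and other myeloid cells that binds sialic acid on neighbouring glycans and carries inhibitory signalling motifs in its cytoplasmic tail. It restrains activating receptors that signal through the adaptor Tyrobp, such as Trem2, and variants near the human gene are associated with the risk of Alzheimer's disease. Here the mouse gene, Cd33, was targeted and measured. An ASO of the RNase H type pairs with its target transcript and directs the cleavage of that transcript, and oligonucleotides can also act on cells through nucleic acid sensors or through pairing with other transcripts.

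RNA was measured on Illumina bead arrays, and values are log2 signals after background correction with an offset of 16 and quantile normalization. Differences are CD33 ASO minus control ASO on that log2 scale. The arrays detected 13335 to 14446 probes with CD33 ASO and 13244 to 14139 with control ASO. Of the hippocampal neuron markers 6 of 9 were measured, among them Prox1, Wfs1 and Fibcd1, and their summed linear signal was 13590 to 16250 with CD33 ASO and 13480 to 15930 with control ASO. The 5 measured microglial markers summed to 1603 to 4007 with CD33 ASO and 1513 to 2673 with control ASO, and 0 of 5 passed the test. In whole tissue, a change in the number of cells of a type and a change in RNA per cell cannot be told apart.

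Several arrays stood apart and are given beside the results that they touch. CD33 ASO replicate 4 had the highest level of its group in 29 of 45 gene lists. Control ASO replicate 1 had a mean level of 1.88 above the average over 20 immediate early genes, while the other 10 control ASO arrays lay between -0.24 and 0.13. Thy1, whose promoter drives the transgenes, was as low as in wild-type mice on CD33 ASO replicate 6 (13.92) and on control ASO replicates 1 (13.96) and 10 (13.83), and was at least 14.59 on the other CD33 ASO arrays and 14.54 on the other control ASO arrays. On these 3 arrays the Thy1 level goes against the APP/PS1 label, and they were kept in the groups of their labels, with main counts also given without them. CD33 ASO replicates 1 and 6 came from animals collected 13 and 16 days after surgery, and all other animals of both groups were collected after 17 days. Thus CD33 ASO replicate 1, the 1 CD33 ASO array on slide 1, was collected before the stated 14 days of infusion would have ended. The groups were also spread unevenly over 5 slides. Slides 1 to 5 held 1, 4, 1, 1 and 2 arrays with CD33 ASO, against 4, 2, 0, 5 and 0 arrays with control ASO. Within groups, 4145 hippocampal probes differed between slides, beside 14923 hippocampal probes tested.

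With CD33 ASO, 527 of 14923 tested probes differed from control ASO (3.53%, limma with Benjamini-Hochberg adjusted p under 0.05), of which 269 were higher (1.8%) and 258 lower (1.73%). Taking 1 probe per gene, 188 genes were higher and 204 lower among 10269 genes. Most differences were small, with a median absolute difference of 0.315 among called probes, 76 probes over 0.5 and 7 over 1. With slide as a block 113 probes were called (0.757%), 60 higher and 53 lower. Of these, 102 were among the 527, all 527 kept their sign, and the median ratio of the blocked to the unblocked difference was 0.735. Without the arrays with low Thy1, 221 probes were called (1.48%), and 326 without CD33 ASO replicate 4 (2.18%, 167 higher and 159 lower). Across the arrays, 20 probes (0.134%) had values that did not overlap between the groups. All 20 were among the called probes, which adds no separate evidence because both rest on the same values.

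**Figure D1:**
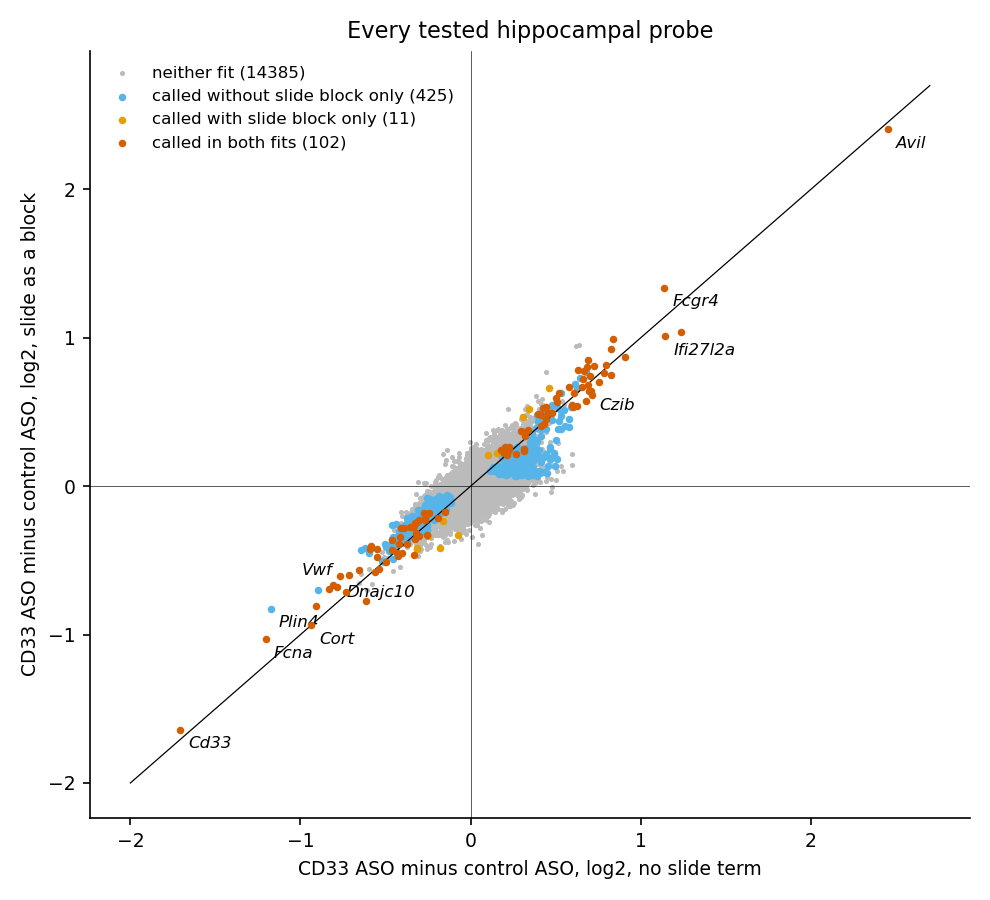
Difference between CD33 ASO and control ASO for each tested hippocampal probe, fitted without a slide term (x axis, log2) and with slide as a block (y axis, log2), where the line marks equal values. The 102 probes called in both fits include Cd33, Avil, Fcna, Dnajc10, Czib, Fcgr4, Ifi27l2a and Cort, while Plin4 and Vwf are among the 425 called only without the slide term.

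Cd33 itself was lower with CD33 ASO on every array. Its probe gave a lowest, median and highest log2 signal of 4.45, 4.77 and 5.16 with CD33 ASO, against 6.15, 6.42 and 7.16 with control ASO. The groups did not overlap, and the lowest control ASO array lay clear of the highest CD33 ASO array. The difference was -1.71 (95% interval -1.92 to -1.49, limma adjusted p = 1.08e-15), or 0.306 of the control ASO signal. An exact two-sided permutation test over the 167960 assignments of the 20 arrays gave p = 1.19e-05, the smallest it can give. The probe was detected on 2 of 9 arrays with CD33 ASO and on 11 of 11 with control ASO, so the CD33 ASO level lay close to background, where the offset narrows differences. Of the other measured members of the Siglec list, Siglech, a microglial lectin that pairs with Tyrobp, gave 8.51 and 8.31 as medians (difference 0.19, adjusted p = 0.456). Mag, the myelin Siglec, gave 11.52 and 11.67 (difference -0.16, adjusted p = 0.168).

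The called gene with the largest rise was Avil, which encodes advillin, an actin-binding protein known from sensory neurons. Avil ranged over 6.43, 7.30 and 8.09 (lowest, median and highest) with CD33 ASO, against 4.37, 4.56 and 5.45 with control ASO. It was detected on 9 of 9 arrays with CD33 ASO and 4 of 11 with control ASO, with no overlap, and PBS arrays averaged 4.59 ± 0.141 (SD, n = 8). The difference was 2.45 (SE 0.154, limma adjusted p = 1.08e-15), and it lay between 2.31 and 2.63 within the 3 slides that held both groups. The control ASO level lay close to background, where the offset narrows differences.

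Dnajc10 and Nrbp2 were lower with CD33 ASO without overlap. Dnajc10, an endoplasmic reticulum chaperone that reduces disulfide bonds, gave 9.41, 9.89 and 10.09 (lowest, median and highest) with CD33 ASO, against 10.44, 10.66 and 10.80 with control ASO. Its difference was -0.83 (SE 0.0646, limma adjusted p = 1.6e-12), and PBS arrays averaged 10.51 ± 0.121 (SD, n = 8). A second, dimmer Dnajc10 probe differed by -0.07 (adjusted p = 0.729). Its means were 4.88 with CD33 ASO and 4.95 with control ASO, close to background, so it says little about Dnajc10. Nrbp2, a pseudokinase, gave 11.03, 11.34 and 11.73 with CD33 ASO, against 11.85, 11.95 and 12.16 with control ASO (difference -0.65, limma adjusted p = 8.52e-10). For both genes the PBS mean lay within the control ASO range and above every CD33 ASO array.

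Fcna and Czib also separated the groups, and here the control ASO mean lay further from the PBS mean than the CD33 ASO mean did. Fcna, the lectin ficolin A that can start the complement cascade, gave 5.09, 5.51 and 5.89 (lowest, median and highest) with CD33 ASO, against 6.09, 6.79 and 7.16 with control ASO. The difference was -1.21 (SE 0.132, limma adjusted p = 3.17e-08), while PBS arrays averaged 4.88 ± 0.227 (SD, n = 8). Czib, which encodes a zinc-binding protein, gave 9.44, 9.63 and 9.75 with CD33 ASO, against 8.45, 8.83 and 9.29 with control ASO. Its difference was 0.71 (SE 0.0740, limma adjusted p = 9.83e-09), its PBS mean 9.61 ± 0.11 (SD, n = 8), and its second probe differed by 1.24 (adjusted p = 3.08e-09). The CD33 ASO values of Czib lay at the PBS level. Both comparisons with PBS share arrays with the comparison of the oligonucleotides, so they are side values only.

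**Figure D2:**
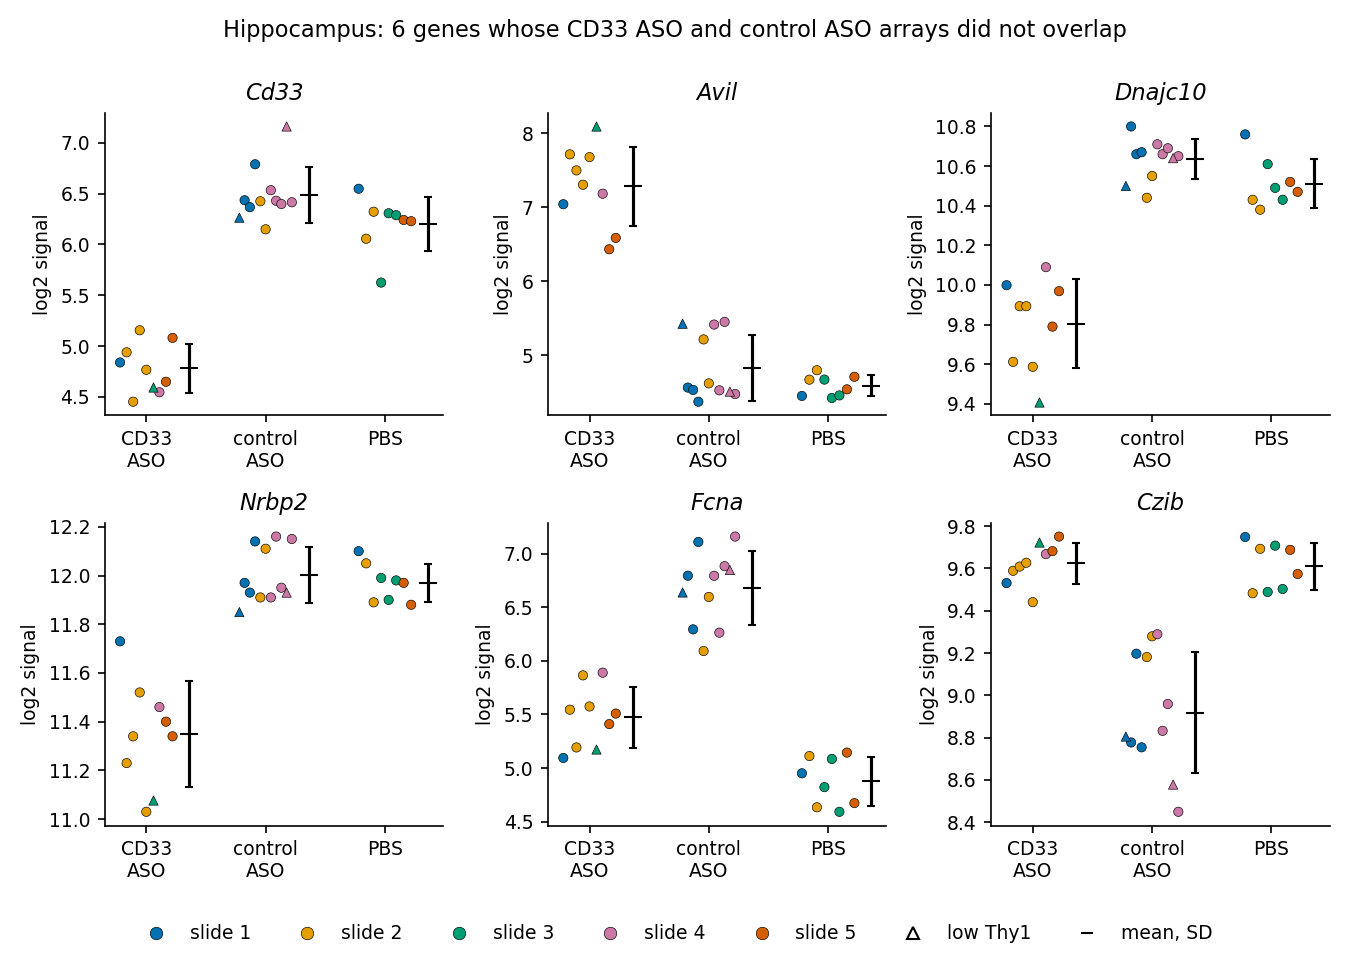
Log2 signal (y axis) of Cd33, Avil, Dnajc10, Nrbp2, Fcna and Czib on each hippocampal array of APP/PS1 mice with CD33 ASO, control ASO or PBS, coloured by slide, with triangles for arrays with low Thy1 and the mean with SD beside each group. In all 6 genes the CD33 ASO and control ASO arrays do not overlap, the PBS means of Cd33, Avil, Dnajc10 and Nrbp2 lie within the control ASO range, that of Czib within the CD33 ASO range, and that of Fcna below both.

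Several genes of the type I interferon response were higher with CD33 ASO. Interferons released by cells that sense viral or other nucleic acids bind a receptor whose signal leads transcription factors such as Irf9 to the interferon-stimulated response element (ISRE) in the promoters of their targets. Of 25 measured genes of the list, 11 rose and 0 fell, against 1.8% and 1.73% of all probes, and the difference was above 0 in 25 of 25. The median difference was 0.39 beside a median of -0.01 over all genes. In the slide-blocked fit 8 rose (0.402% of all probes higher), and 5 without the arrays with low Thy1 (0.657%). Without CD33 ASO replicate 4, 7 rose (167 of all 14923 probes higher). The medians of these 3 fits were 0.42, 0.41 and 0.33. Within slides 1, 2 and 4 the list median was 0.33, 0.42 and 0.28. The members were chosen with earlier results of these data known, so the count is a description.

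The promoters of called list members show what the response element looks like, and 3 of the 5 called members that RefSeq's promoter table (GRCm38.p6) held had at least 1 match to GAAANNGAAA on either strand between 250 bases before and 50 after the start. These 3 are printed 5′ to 3′ along the gene's strand, with each match in capitals (TTTCNNTTTC where it lies on the opposite strand), and matches that overlap run together:
Isg15 (chr4:156200769-156201068, minus strand): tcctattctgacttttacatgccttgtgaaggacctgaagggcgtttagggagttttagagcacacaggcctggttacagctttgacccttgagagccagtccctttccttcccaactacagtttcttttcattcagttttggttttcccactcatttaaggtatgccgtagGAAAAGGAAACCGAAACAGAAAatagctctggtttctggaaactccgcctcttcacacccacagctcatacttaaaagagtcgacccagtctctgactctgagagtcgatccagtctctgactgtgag
Ifit3 (chr19:34583279-34583578, plus strand): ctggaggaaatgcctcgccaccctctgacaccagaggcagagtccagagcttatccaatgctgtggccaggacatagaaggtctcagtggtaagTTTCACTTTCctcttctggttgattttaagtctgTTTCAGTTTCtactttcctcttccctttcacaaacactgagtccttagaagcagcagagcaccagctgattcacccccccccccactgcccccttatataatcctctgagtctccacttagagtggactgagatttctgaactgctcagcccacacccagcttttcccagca
Ifitm3 (chr7:141010695-141010994, minus strand): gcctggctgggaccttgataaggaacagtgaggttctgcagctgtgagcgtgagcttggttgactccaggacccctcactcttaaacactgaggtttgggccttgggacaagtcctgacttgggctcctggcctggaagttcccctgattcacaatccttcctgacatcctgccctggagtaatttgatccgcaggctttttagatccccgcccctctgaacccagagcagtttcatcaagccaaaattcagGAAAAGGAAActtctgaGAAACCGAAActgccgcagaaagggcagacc
The same letters occurred in 3.44% of the 32851 promoter windows of the table, and in 11 of the 17 measured list members that it held. A match is a description of the sequence and not a measured binding site.

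Isg15, an interferon-induced, ubiquitin-like protein that enzymes attach to other proteins, gave 6.90, 7.56 and 7.96 (lowest, median and highest) with CD33 ASO, against 6.16, 6.65 and 7.33 with control ASO. The groups overlapped, and the difference was 0.78 (SE 0.149, limma adjusted p = 0.00119; 0.76 with slide as a block). Ifi27l2a, an interferon-induced gene, gave 8.59, 8.93 and 9.98 with CD33 ASO, against 7.34, 7.93 and 8.56 with control ASO. It was the list member without overlap, although its highest value came from CD33 ASO replicate 4. Its difference was 1.14 (limma adjusted p = 0.000968), and 1.03 without that array. Oasl2, of the oligoadenylate synthetase family that senses double-stranded RNA, rose by 0.82 (SE 0.131, limma adjusted p = 9.13e-05) and its second probe by 0.61 (adjusted p = 0.00248).

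Usp18, the protease that removes Isg15 and dampens the interferon receptor, rose by 0.73 (limma adjusted p = 0.00899), and both of its other probes were called too, at 0.68 and 0.63. Mx2, a GTPase that acts against viruses, rose by 0.66, and Irf9, a DNA-binding factor of the interferon response, by 0.48. Ifit3, Oas2, Ifitm3, Ifi27 and Rtp4 rose by 0.52, 0.52, 0.43, 0.39 and 0.33. These last 5 genes and Usp18 did not pass when the arrays with low Thy1 were left out (adjusted p between 0.0553 and 0.126). The lowest differences in the list were those of Stat2 and Rsad2, both at 0.17, which did not pass.

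Over the 25 genes together, the mean level per array, centred on the 20 arrays, was -0.05, 0.16 and 0.66 (lowest, median and highest) with CD33 ASO, against -0.38, -0.20 and 0.04 with control ASO. CD33 ASO replicate 4 was the highest of all arrays, and the groups overlapped by the CD33 ASO arrays 3 and 5 of slide 2 and control ASO arrays 3, 5 and 10. Against PBS, 4.96% of all probes were called with CD33 ASO and 11.4% with control ASO. Set beside PBS, 20 of 25 members were higher with CD33 ASO (3.02% of all probes were higher) and 8 of 25 with control ASO (5.73%). With slide as a block these counts were 19 and 1 (3.01% and 0.429% of all probes), with median differences from PBS of 0.73 and 0.26. These comparisons share the PBS arrays.

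Chemokines draw leukocytes and microglia to a site. Of 15 measured members 5 rose and 0 fell (median 0.25), against 1.8% and 1.73% of all probes. The count was 3 with slide as a block (0.402% of all probes higher) and 3 without the arrays with low Thy1 (0.657%). Without CD33 ASO replicate 4 it was also 3 (167 of all 14923 probes higher). Ccl4, which microglia release on activation, gave 8.54, 8.88 and 9.63 (lowest, median and highest) with CD33 ASO, against 7.36, 8.16 and 9.05 with control ASO. The groups overlapped, the difference was 0.84 (SE 0.19, limma adjusted p = 0.00797), and its second probe gave 0.91 (adjusted p = 3.76e-05). The call of the first probe was lost without the arrays with low Thy1 (adjusted p = 0.0668). The Ccl4 difference was close to 0 on slide 1, at -0.02, and 1.54 and 1.16 on slides 2 and 4. Ccl3 rose by 0.76, Ccl12 by 0.70, Cxcl10 by 0.68 and Ccl9 by 0.44. Cxcl10 is itself induced by interferon, and its call was lost in the slide-blocked fit (0.77, adjusted p = 0.0542), and also without CD33 ASO replicate 4 (0.58, adjusted p = 0.0607).

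Among receptors for the constant part of antibodies 1 of 6 rose and 0 fell, against 1.8% of all probes higher and 1.73% lower. Fcgr4, a mouse receptor that binds immunoglobulin G of the activating subclasses, gave 7.38, 8.09 and 10.30 (lowest, median and highest) with CD33 ASO, against 6.58, 7.05 and 8.67 with control ASO. The groups overlapped and the PBS mean, 5.96 ± 0.631 (SD, n = 8), lay below every array of both. The difference was 1.14 (SE 0.261, limma adjusted p = 0.00899), 1.34 with slide as a block and 0.89 without CD33 ASO replicate 4. Fcer1g, the signalling chain of these receptors, differed by 0.24 and Fcgr1, Fcgr2b and Fcgr3 by 0.16 to 0.24, and none of them passed. Among complement genes C4b, a substrate of the classical pathway, rose by 0.44 (limma adjusted p = 0.00779), as 1 of 7 measured members (1.8% of all probes). C1qa, C1qb and C1qc, the recognition subunits, differed by 0.39, 0.29 and 0.28 and did not pass.

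The class I antigen presentation list had 4 members that rose and 0 that fell among 14, against 1.8% of all probes higher and 1.73% lower. Psmb9, a subunit of the immunoproteasome, rose by 0.53 (SE 0.109, limma adjusted p = 0.00321), Tap2, a subunit of the peptide transporter, by 0.45, B2m, the light chain of class I molecules, by 0.36, and Psmb10 by 0.21. Second probes of B2m and Psmb10 did not pass, at 0.30 (adjusted p = 0.0864) and 0.00 (adjusted p = 0.993). Tap2 remained the called member with slide as a block (0.53, adjusted p = 0.00424). The heavy chain genes H2-K1 and H2-D1 differed by 0.11 and 0.07 and did not pass. In the class II list 0 of 7 genes passed, with a median of -0.14.

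**Figure D3:**
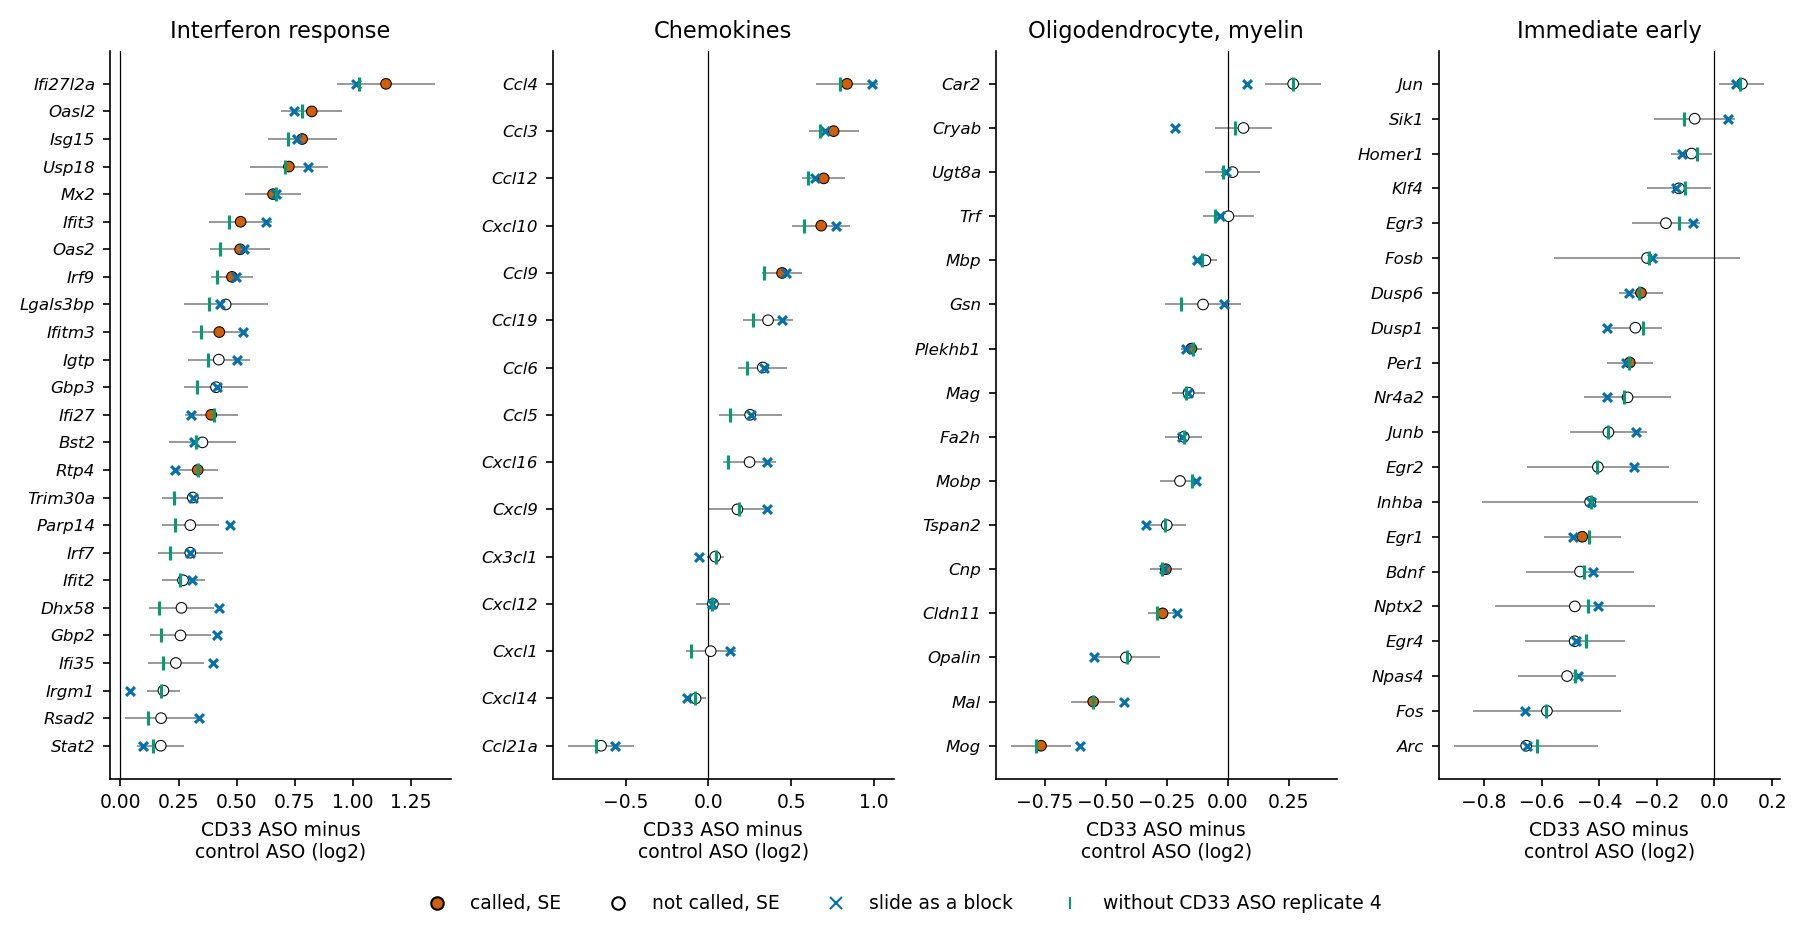
Difference between CD33 ASO and control ASO (x axis, log2) for each measured gene of 4 lists, with bars for the SE, filled circles for called genes, crosses for the fit with slide as a block and green bars for the fit without CD33 ASO replicate 4. All 25 interferon genes lie above 0 and 19 of 20 immediate early genes below 0, and the chemokine and myelin genes differ in size among themselves.

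Of 19 homeostatic microglia genes 0 passed the test, with a median of 0.09. Without CD33 ASO replicate 4 the median was 0.04 and 1 gene was lower (159 of all 14923 probes lower). This was Mertk, a receptor for the uptake of dying cells, at -0.32 (limma adjusted p = 0.0471), named after its values were seen. Tmem119, a marker of resident microglia, had medians of 8.69 with CD33 ASO and 8.63 with control ASO (difference 0.00), Cx3cr1 of 8.62 and 8.52 (0.03), and P2ry12 of 5.66 and 5.81 (-0.27, limma adjusted p = 0.395). The groups overlapped in all 3 genes. Among 28 genes of microglia around plaques 3 rose and 0 fell, with a median of 0.25, against 1.8% of all probes higher and 1.73% lower. These were Tyrobp, B2m and Csf1, and the count was 0 with slide as a block (0.402% of all probes higher). Without CD33 ASO replicate 4 the count was 1 (167 of all 14923 probes higher).

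Tyrobp, the adaptor with an activating motif that passes on signals of Trem2 and other receptors, gave 9.01, 9.52 and 10.45 (lowest, median and highest) with CD33 ASO, against 8.43, 9.08 and 9.42 with control ASO. The difference was 0.58 (SE 0.146, limma adjusted p = 0.0199), but 0.40 in the slide-blocked fit (adjusted p = 0.287), and 0.48 without CD33 ASO replicate 4 (adjusted p = 0.0573). It was -0.10, 0.93 and 0.37 within slides 1, 2 and 4. Trem2, the lipid-binding receptor that signals through Tyrobp, gave medians of 10.32 and 9.99 and a difference of 0.38 that did not pass (adjusted p = 0.113). Of the 13 genes of activating and inhibitory motif signalling, Clec4a3, a C-type lectin, and Lat2, an adaptor, also rose, by 0.48 and 0.39. This count of 3, beside 1.8% of all probes higher, fell to 0 with slide as a block and to 0 without CD33 ASO replicate 4. A second Lat2 probe gave 0.32 (adjusted p = 0.182).

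Cst7 and Clec7a, both induced in microglia at plaques, differed by 0.31 (adjusted p = 0.516) and 0.33 (adjusted p = 0.216), though a second Clec7a probe rose by 0.53 (limma adjusted p = 0.0446, with an adjusted p of 0.09 with slide as a block). Apoe, the main lipid carrier of the brain, differed by 0.13 (adjusted p = 0.173). Lgals3 and Gpnmb, which phagocytes raise when loaded with material, differed by 0.44 and 0.23, or by 0.24 and 0.01 without CD33 ASO replicate 4. Of 15 genes of the oligonucleotide response list 0 passed, and 2 were higher without the arrays with low Thy1 (0.657% of all probes higher). Named after their values were seen, they were the calcium-binding S100a6 by 0.63 (limma adjusted p = 0.00855) and the filament protein vimentin (Vim) by 0.66 (limma adjusted p = 0.0367). Control ASO replicate 10, 1 of those arrays, had a level of 0.94 over this list, while the other control ASO arrays lay at 0.02 or below. Lgals3 gave 9.04, 9.33 and 11.14 (lowest, median and highest) with CD33 ASO, against 8.53, 9.01 and 10.48 with control ASO and a mean of 7.67 ± 0.504 (SD, n = 8) with PBS. Every array of both oligonucleotide groups lay above the PBS mean, and the groups overlapped.

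Of 22 reactive astrocyte genes 2 rose, Cxcl10 and C4b, and 0 fell, against 1.8% of all probes higher and 1.73% lower. Gfap, the intermediate filament of astrocytes, differed by 0.27 (adjusted p = 0.324), and by 0.16 without CD33 ASO replicate 4. Among 8 genes of border macrophages Mrc1, the mannose receptor, fell by 0.62 (SE 0.143, limma adjusted p = 0.00953), with values of 5.04, 5.84 and 6.46 (lowest, median and highest) with CD33 ASO, against 5.91, 6.46 and 6.78 with control ASO. With slide as a block the difference of Mrc1 was -0.42 (adjusted p = 0.242). Transcripts of App and its processing enzymes gave 0 calls among 17 genes. App, the amyloid precursor, differed by 0.17 (adjusted p = 0.0831), and among 20 genes near risk loci of Alzheimer's disease Slc24a4 fell by 0.31 besides Cd33 (lost with slide as a block, adjusted p = 0.389).

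**Figure D4:**
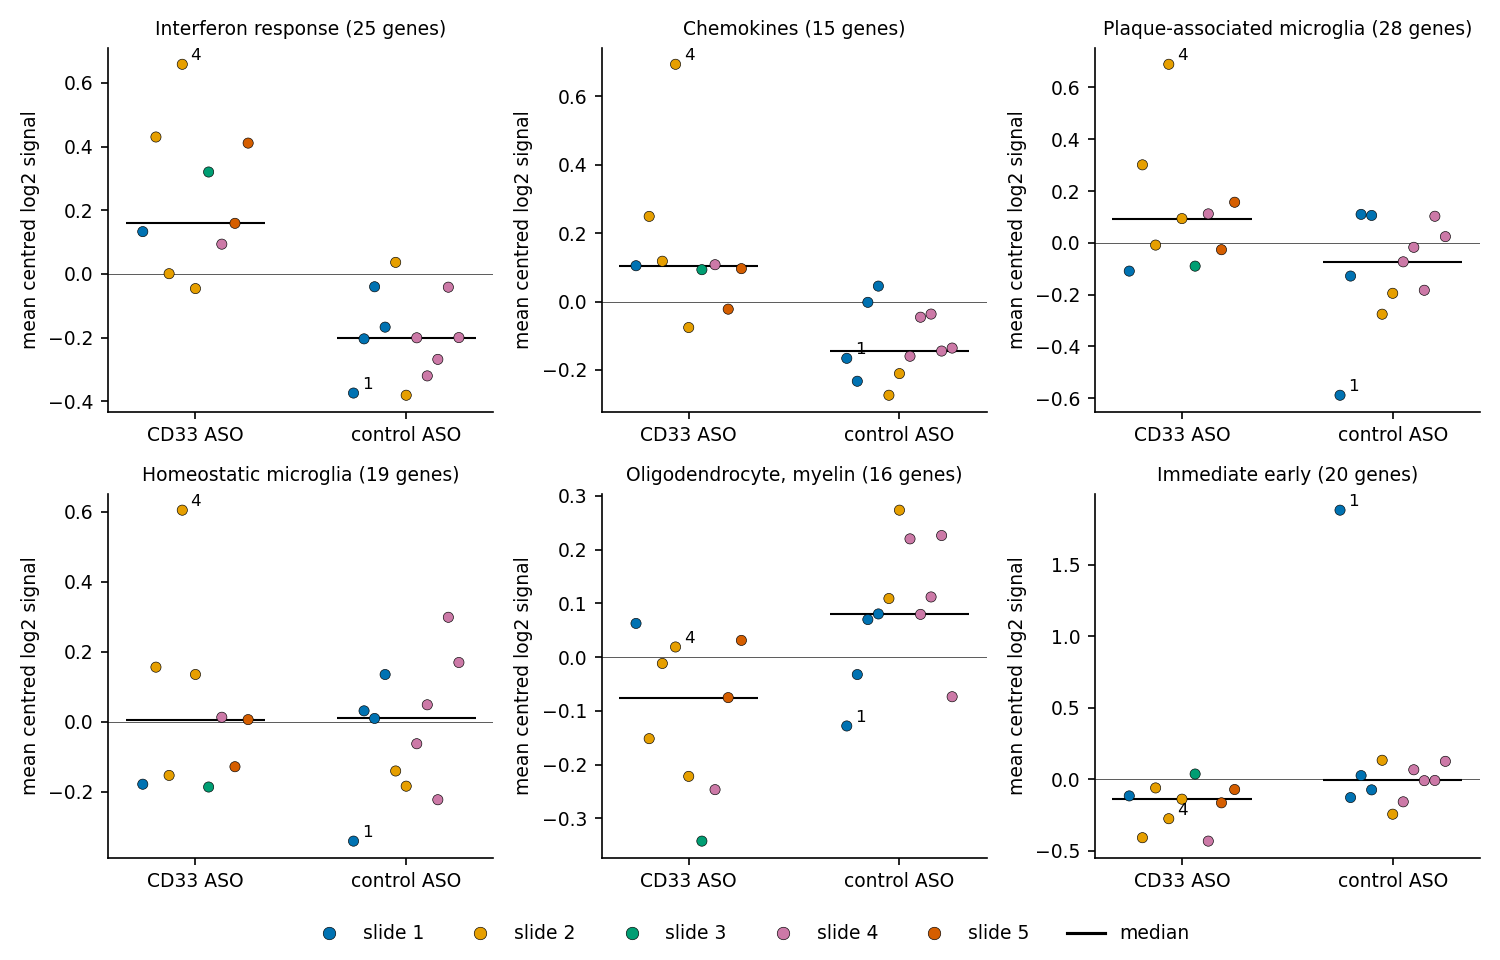
Mean level of 6 gene lists on each array, as log2 signal centred on the 20 arrays and averaged over the list (y axis), for CD33 ASO and control ASO, coloured by slide, with the group median as a line and the numbers 4 and 1 beside CD33 ASO replicate 4 and control ASO replicate 1. Replicate 4 is the highest CD33 ASO array in the interferon, chemokine and both microglial lists, and control ASO replicate 1 lies at 1.88 in the immediate early list.

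Several myelin genes were lower with CD33 ASO. Myelin is the sheath that oligodendrocytes wrap around axons. Of 16 measured genes 5 fell and 0 rose (median -0.17), against 1.73% and 1.8% of all probes. The count that fell was 4 with slide as a block (0.355% of all probes lower) and 4 without the arrays with low Thy1 (0.824%). Without CD33 ASO replicate 4 it was also 4 (159 of all 14923 probes lower). Mog, a glycoprotein on the outer face of the sheath, gave 7.55, 8.03 and 8.81 (lowest, median and highest) with CD33 ASO, against 8.18, 9.01 and 9.25 with control ASO. The difference was -0.77 (SE 0.122, limma adjusted p = 9.97e-05) and its second probe gave -0.78 (adjusted p = 1.44e-05). On slide 1, with 1 array with CD33 ASO, it was 0.21, and on slides 2 and 4 it was -0.87 and -0.73.

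Mal, a lipid raft proteolipid of myelin, fell by 0.55, Cldn11, the tight junction protein of myelin, by 0.27, Cnp by 0.25 and Plekhb1 by 0.15. Second probes of Mal and Cnp gave -0.18 (adjusted p = 0.416) and -0.14 (adjusted p = 0.281). Mbp, an abundant structural protein of myelin, differed by -0.09 and Mag by -0.16, and neither passed. The brightest Mobp probe gave -0.20 (adjusted p = 0.188), while another Mobp probe, named after its values were seen, gave -0.62 (limma adjusted p = 6.19e-05, and -0.77 with slide as a block), so probes of this gene disagree. Hapln2, a link protein that oligodendrocytes place at nodes of Ranvier, fell by 0.81 (SE 0.102, limma adjusted p = 1.48e-06), with 7.28, 7.43 and 7.96 (lowest, median and highest) with CD33 ASO, against 7.81, 8.29 and 8.86 with control ASO. Bcas1, of newly myelinating oligodendrocytes, fell by 0.41 (limma adjusted p = 0.000199). It was 1 of 12 genes of the precursor list, in which 0 rose, beside 1.73% of all probes lower.

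Set beside PBS, 9 of 16 myelin genes were lower with CD33 ASO (1.94% of all probes were lower) and 4 of 16 with control ASO (5.65%), and with slide as a block 9 and 1 (2.26% and 0.382% of all probes). The PBS means of Mog, Mal and Hapln2 were 9.03, 9.44 and 7.85. The first 2 lay within the control ASO range, and that of Hapln2 lay between the medians of the groups.

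Immediate early genes, which neurons switch on within minutes of activity, had 3 members that fell and 0 that rose among 20, against 1.73% of all probes lower and 1.8% higher. The median difference was -0.34, and 1 of 20 differences was above 0. Without the arrays with low Thy1 0 fell and the median was -0.22. Egr1, a zinc finger transcription factor, gave 10.75, 11.40 and 11.61 (lowest, median and highest) with CD33 ASO, against 11.32, 11.63 and 13.13 with control ASO (difference -0.46, limma adjusted p = 0.0434). Its highest control ASO value came from an array with low Thy1. Of such control ASO arrays, replicate 1 had a level of 1.88 over this list and replicate 10 a level of -0.007. Dusp6, a phosphatase of the ERK pathway, fell by 0.26 and Per1, a clock gene, by 0.29. Other Dusp6 probes gave -0.15 and -0.11 (adjusted p = 0.598 and 0.718), and a second Per1 probe gave -0.42 (adjusted p = 0.00494). Without control ASO replicate 1 the list median was -0.18, 2 genes fell and 4 differences were above 0. That fit called 425 of all 14923 probes in either direction. In the slide-blocked fit 0 passed, while the median was -0.34. Arc and Fos had the most negative differences, -0.65 and -0.58, and neither passed.

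Of 13 clock genes Per1 and Per2 fell, by 0.29 and 0.44, and of 21 glucocorticoid-responsive genes Per1 and Plin4. In both lists 0 rose, against 1.73% of all probes lower and 1.8% higher. A second Per2 probe gave -0.42 (adjusted p = 0.0568). Plin4, a coat protein of lipid droplets, gave 6.58, 8.27 and 9.18 (lowest, median and highest) with CD33 ASO, against 6.95, 9.30 and 10.51 with control ASO, and its PBS mean was 6.75. The difference was -1.18 (SE 0.337, limma adjusted p = 0.0411), with wide overlap. None of these 3 calls held with slide as a block (adjusted p = 0.396 for Plin4, 0.322 for Per2 and 0.0939 for Per1). Within slides 2 and 4 the difference of Plin4 was 0.05 and -0.22. Slide 1, which held 1 CD33 ASO array, is left out here. Over 15 alternative fits, slide as a block among them, the Plin4 difference lay between -1.30 and -0.82.

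**Figure D5:**
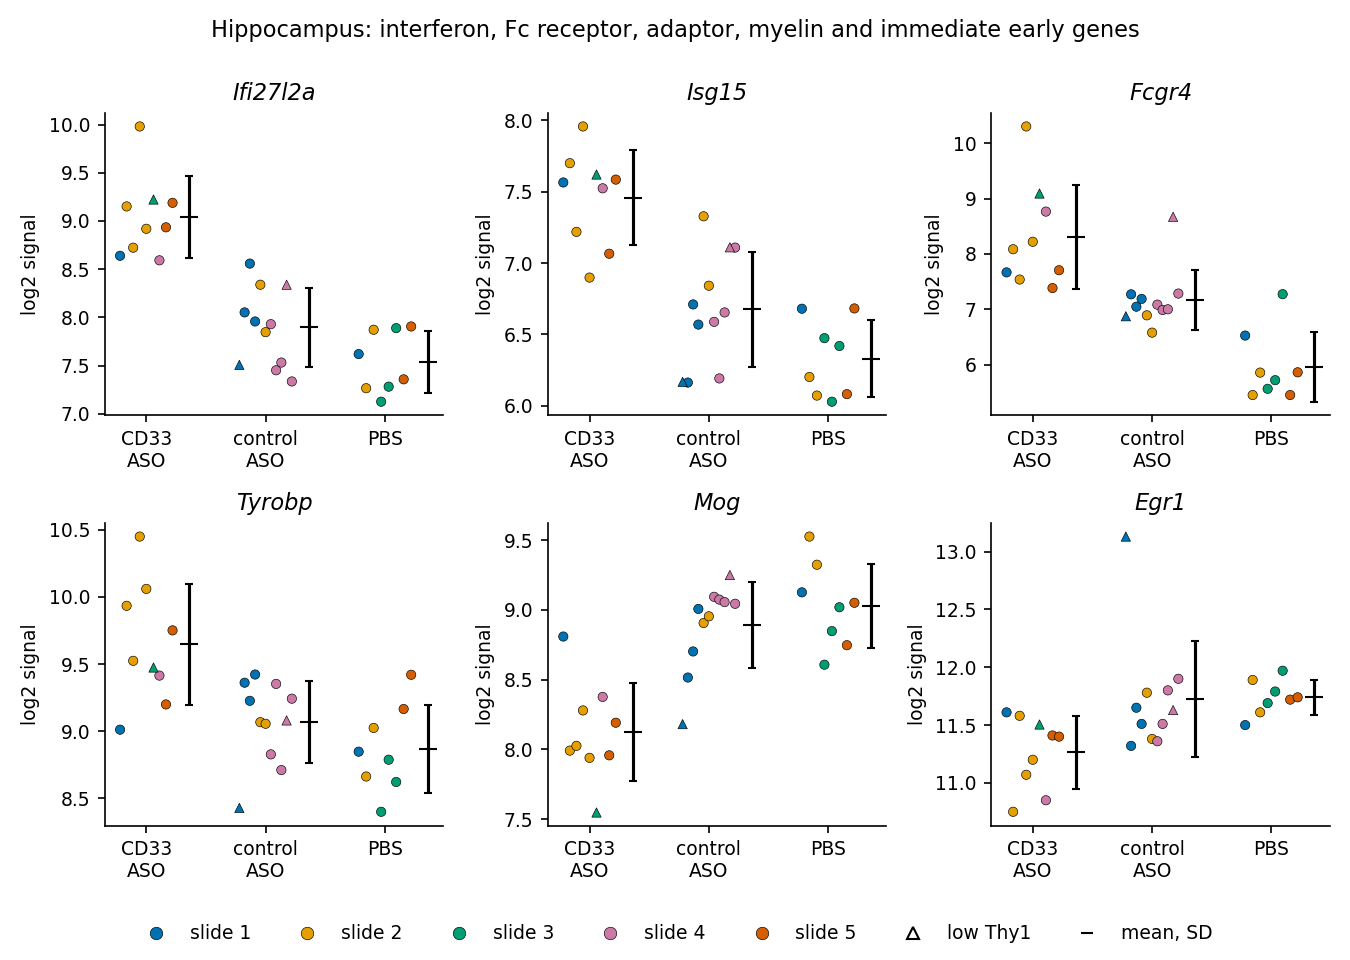
Log2 signal (y axis) of Ifi27l2a, Isg15, Fcgr4, Tyrobp, Mog and Egr1 on each hippocampal array of APP/PS1 mice with CD33 ASO, control ASO or PBS, coloured by slide, with triangles for arrays with low Thy1 and the mean with SD beside each group. Ifi27l2a does not overlap between the oligonucleotides, the other 5 genes do, and Egr1 has 1 control ASO array at 13.13.

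Among genes of neuronal signalling, Cort, a neuropeptide of interneurons related to somatostatin, gave 5.74, 6.41 and 8.00 (lowest, median and highest) with CD33 ASO, against 6.91, 7.57 and 8.53 with control ASO. The difference was -0.94 (SE 0.204, limma adjusted p = 0.00596, or 0.0424 when slide was a block), with a PBS mean of 8.27. A second Cort probe gave -0.61 (adjusted p = 0.0639). Crhbp, which binds corticotropin-releasing hormone, fell by 0.52 and lost its call with slide as a block (adjusted p = 0.135). These were 2 of 14 interneuron genes, of which 0 rose, against 1.73% of all probes lower and 1.8% higher. Sst, Pvalb and Gad1 differed by 0.03, -0.07 and 0.10. Gabrb2, a subunit of the GABA-A receptor, gave 4.81, 5.36 and 5.79 with CD33 ASO, against 5.77, 6.04 and 6.16 with control ASO (difference -0.73, limma adjusted p = 1.44e-05). It overlapped by little, and it was detected on 7 of 9 and 11 of 11 arrays.

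Hcrtr1, a receptor for orexin, fell by 0.71 (limma adjusted p = 0.000436) and Ddc, the decarboxylase that makes dopamine and serotonin, by 0.65 (adjusted p = 0.00254, and 0.0644 with slide as a block). Of 24 synaptic genes Rab3a, a GTPase of synaptic vesicles, rose by 0.27 (adjusted p = 0.001, and 0.0558 with slide as a block). It was the 1 called gene of that list, beside 3.53% of all probes called. Among all probes 1.8% were higher and 1.73% lower. Of 15 genes that mark hippocampal subfields Bok and C1ql2 rose by 0.37 and 0.27 and Cpne4 fell by 0.30. A second Bok probe gave -0.06 (adjusted p = 0.813), so the probes of Bok disagree. None of these 3 passed with slide as a block. Among 19 genes of neighbouring regions Cux2, an upper-layer cortical marker, fell by 0.46 (limma adjusted p = 0.00691). A second, dimmer Cux2 probe gave 0.07 (adjusted p = 0.801), with means of 4.94 and 4.87, close to background.

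Of 25 endothelial and mural genes Vwf, Rgs5 and Flt1 fell and 0 rose, against 1.73% of all probes lower and 1.8% higher. With slide as a block 0 passed. Vwf, the clotting factor stored in endothelium, gave 7.30, 8.52 and 9.37 (lowest, median and highest) with CD33 ASO, against 8.71, 9.40 and 9.78 with control ASO. The difference was -0.90 (SE 0.219, limma adjusted p = 0.0141), and -0.70 with slide as a block (adjusted p = 0.22). Rgs5, of pericytes, fell by 0.45, and Flt1, a receptor for vascular growth factor, by 0.26. A second, dimmer Flt1 probe gave -0.11 (adjusted p = 0.587), with means of 4.808 and 4.915, close to background.

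Several of the remaining large differences belonged to none of these groups. Fam83e gave 5.34, 5.75 and 6.21 (lowest, median and highest) with CD33 ASO, against 4.57, 4.87 and 5.85 with control ASO, and rose by 0.80 (limma adjusted p = 0.000128). Apoa1, the main apolipoprotein of high density lipoprotein, gave 5.53, 5.79 and 5.87 against 4.73, 5.01 and 5.30 with control ASO, without overlap (difference 0.69, limma adjusted p = 8.4e-06). Sytl1, an effector of Rab27, also did not overlap and rose by 0.70. The probes of Fam83e, Apoa1 and Sytl1 were not detected on all 20 arrays, so signal near background limits their values.

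Gdpd3, a phosphodiesterase of lysophospholipids, rose by 0.72 and Aox3, an aldehyde oxidase, by 0.69 (limma adjusted p = 0.0312), the last with a PBS mean of 6.69 above both medians. The Aox3 call was kept in 14 of 20 fits that left out 1 array. It was lost without CD33 ASO replicate 4 (0.66, limma adjusted p = 0.0609). Plekhf1, a lipid-binding endosomal protein, fell by 0.60 (adjusted p = 0.068 with slide as a block) and Accs by 0.59. A second Plekhf1 probe gave -0.27 (adjusted p = 0.29). In the remaining lists with a call, Mcm5, of the replicative helicase, rose by 0.34, Gstm1, a glutathione transferase, by 0.34, Asns, asparagine synthetase, by 0.30, Laptm4a, of lysosomal membranes, by 0.19 and Ndrg2, of astrocytes, by 0.41. Of these only Mcm5 passed with slide as a block. They were the genes that rose in lists of 15, 12, 27, 31 and 19 measured genes, against 1.8% of all probes higher. Other Asns probes gave 0.05 and 0.19 (adjusted p = 0.863 and 0.0896), and a second Gstm1 probe gave 0.06 (adjusted p = 0.817). The Asns probe at 0.05 had means of 5.07 and 5.02, close to background. Among 16 genes of nerve injury Avil and Csf1 rose and Flrt3 fell. Only the call of Avil held with slide as a block (adjusted p = 0.354 for Csf1 and 0.379 for Flrt3). Other Flrt3 probes gave -0.20 and -0.24 (adjusted p = 0.119 and 0.334).

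In 17 of 45 lists 0 members passed, with list medians between -0.14 for class II antigen presentation and 0.23 for the oligonucleotide response. Besides those named, they covered nucleic acid sensors, cytokines and Toll-like receptors, neutrophils and monocytes, lymphocytes, lipid efflux, cholesterol and fatty acid synthesis, p53 targets, heat shock, meningeal fibroblasts, erythroid cells, ependyma and the proton pump of lysosomes. The choroid plexus list, where Ttr leads, had 0 calls among 15 genes and wide spread. Its 3 markers summed to 2836 to 27460 linear signal units with CD33 ASO and 2411 to 25780 with control ASO, and the list median was 1.35, -0.31 and -1.26 within slides 1, 2 and 4.

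In the frontal cortex of the same cohort (10 arrays with CD33 ASO and 11 with control ASO), 47 of 14581 probes were called (0.322%, 0.185% higher and 0.137% lower). Avil rose by 2.27 there, Fcgr4 by 1.43, Czib by 0.50 and Fam83e by 0.59, and Cd33 fell by 1.27, Fcna by 0.94, Mog by 0.64, Vwf by 0.57, Mrc1 by 0.53, Mal by 0.39, Dnajc10 by 0.36 and Nrbp2 by 0.31. Of 25 interferon genes 0 passed in the cortex although the median difference was 0.54. A direct test of the difference between tissues, with animal as a block, called 1 of 15290 probes (0.00654%), that of Dnajc10, whose difference was lower in the hippocampus by 0.47 (SE 0.0741, limma adjusted p = 0.000174). With slide as a block in both tissues this call was lost, and for no other gene was a difference between the tissues shown.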

How the data were processed

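Total RNA of hippocampus was hybridised to Illumina MouseRef-8 v2 bead arrays. The deposited intensity values, with, per the file headers, a detection p-value after each array's signal, were not normalized between arrays, and 21.8% to 25.2% of those of a hippocampal array lay below 0. The authors' log2 table of 18960 of the 25697 probes was an alternative. BeadStudio, GenomeStudio and Partek are named in the submitters' processing notes.

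In R 4.3.3 with limma 3.58.1, neqc used the detection p-values for the background, with an offset of 16 and quantile normalization over all 79 arrays. Probes with detection p under 0.05 on at least 8 hippocampal arrays were tested. Groups, slides and animals came from the labels. A linear model of 4 groups over 39 hippocampal arrays (lmFit, eBayes with trend) gave differences, with Benjamini-Hochberg adjustment over all tested probes. For the tissue test the animal was a random block in duplicateCorrelation (correlation 0.0801). Symbols came from the platform annotation, and a gene was read from its brightest probe. Of the named probes 17791 of 17800 gene IDs were found in RefSeq (GRCm38.p6), and 33 called probes had no symbol. The permutation test used scipy 1.17.1 and figures matplotlib 3.10.9.

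The text names Cd33, Thy1, App and 11 further microglial and glial genes, the Siglecs, the 15 largest rises and falls and up to 4 called members of each of 45 lists, or 2 with the highest mean where none was called. Some are left out for length, and further list members are given as values. Members and lists were chosen with earlier results of these data known. The linear model, with and without slide as a block, was tested on simulated data with independent noise and added group differences. No slide effect was simulated, so that test does not bear on how slides were handled. The number of arrays limits the precision.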

Additional observations from a re-analysis of the deposited data

Results flagged for a closer look

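Among the CD33 ASO arrays, 18 of 110 named genes had 1 array far from the other 8 by Dixon's test, which flags about 1 in 20 groups by chance. CD33 ASO replicate 4 was the highest in 11 of them, at 11.38 for Anxa2, 7.42 for Cxcl10, 11.23 for Gfap, 12.04 for Gpnmb, 9.98 for Ifi27l2a, 11.21 for Lcn2, 11.14 for Lgals3, 10.95 for Ly86, 13.12 for Lyz1, 8.24 for Mcm5 and 9.75 for Myd88. CD33 ASO replicate 7 was the highest at 7.96 for Hapln2, 10.60 for Mdm2 and 6.98 for Slc24a4. CD33 ASO replicate 8 was the highest at 9.71 for Per1 and replicate 9 at 13.14 for Rab3a. The lowest values were 4.70 for P2ry12 on replicate 3 and 13.92 for Thy1 on replicate 6.

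Dnajc10 differed between the tissues by a test of that difference, a call that was lost with slide as a block in both tissues. Its CD33 ASO minus control ASO difference was lower in the hippocampus than in the frontal cortex by 0.47, a value of -0.4719 as hippocampus minus cortex (limma adjusted p = 0.000174).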

How the results depend on the processing

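Beside the 527 called probes (269 higher and 258 lower with CD33 ASO), 113 were called with slide as a fixed block (60 and 53, with 102 of the 113 among the 527), 191 with slide as a random block (95 and 96), 271 with only the arrays of both groups in the fit (150 and 121), 262 with median centring (75 and 187) and 221 without the arrays with low Thy1 (98 and 123, with 199 shared). With slide as a block and without those arrays, an alternative chosen after seeing the data, 92 were called (47 and 45, with 80 shared). With no filter on detection 370 were called, 171 of them lower. Leaving out 1 array at a time gave 326 to 776 called probes, 155 to 400 higher and 159 to 378 lower, with 326 without CD33 ASO replicate 4, 329 without replicate 6 and 327 without replicate 9. The other settings gave 426 to 678. The difference between the tissues had 0 calls, against 1, with slide as a fixed block in both tissues. The cause of these shifts was not tested, beyond the fewer arrays or added terms of each fit.

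Of the 63 called genes among the named ones, 42 were called in every fit that left out 1 array, 31 with slide as a fixed block, 40 without the arrays with low Thy1 and 58 in the authors' table, and 0 of them reversed. Replicate numbers are shared by the groups but did not pair the arrays, since the deviations of 9 same-numbered pairs correlated between -0.194 and 0.329 and 1 array was closest to its own number. With the number as a replicate block 645 probes were called and Cd33 differed by -1.68. The number of arrays and, for dim probes such as Cd33, signal near background limit these values.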
